A study of Mus musculus with 14 samples.

Results

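The genes described here are Gja1, Gjb2, Gjb5 and Gjb6, which encode connexin 43, connexin 26, connexin 31.1 and connexin 30. They were taken by gene symbol from a table of 56953 genes measured in mouse skin. All 4 were found, and all 4 were among the 16027 genes with enough counts to be tested. Connexins are membrane proteins that assemble as hexamers into hemichannels, and hemichannels of neighbouring cells dock into gap junctions that pass ions and small metabolites. Keratinocytes express several of them in layers: connexin 43 is the common connexin of the basal and spinous layers, connexin 31.1 belongs to the differentiating layers, and connexins 26 and 30 are low in resting interfollicular epidermis and known to be raised in wounds, psoriatic plaques and hair follicles. Inherited mutations of human GJB2 and GJB6 cause deafness and disorders of cornification.

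The 14 libraries cover skin of 3 genotypes, each with DMSO or with imiquimod. Wild-type C57BL/6J skin gave 2 DMSO and 2 imiquimod libraries. NEDD8fl/fl mice negative for K14-CreERT, called Cre-negative, gave 3 and 2, and NEDD8fl/fl mice positive for K14-CreERT, called knockout, also gave 3 and 2. NEDD8 is a ubiquitin-like protein that switches on cullin-RING ubiquitin ligases, and the series title asks how it acts in epithelial homeostasis and inflammation. Imiquimod, an agonist of Toll-like receptor 7 that gives mouse skin a psoriasis-like inflammation, was applied as Aldara cream at 5% every day until day 7. The knockout was induced on 5 consecutive days beforehand. The labels name no induction for the other genotypes, no cream-base control, no body site for a given library (back or ear) and no animal for a given library, so p-values measure the spread between samples, which may be technical. The design text of the series instead speaks of 3 days of a topical NEDD8 inhibitor, which no library label names. K14-CreERT acts in basal keratinocytes and their descendants, while the RNA is from whole skin, in which fewer cells of a type and less RNA per cell cannot be told apart.

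Reads were 3′ tags, so levels are given as CPM, read counts scaled to a common library size with TMM factors, and are compared for a gene between libraries, never between genes. Total counts ran from 5552954 to 34362477 per library. Nedd8 itself lay at 146.6 to 375 CPM in the 3 knockout DMSO libraries and at 290 to 360 CPM in the 3 Cre-negative DMSO libraries, which overlapped. With imiquimod it lay at 151 to 308 CPM in the knockout libraries, below the 314 to 461 CPM of the Cre-negative libraries without overlap. Its fold change was not past the threshold in either contrast (log2 -0.47 ± 0.40 and -0.76 ± 0.50, adjusted p = 0.403 and 0.326 by edgeR's quasi-likelihood test). A 3′ tag outside the deleted part would not show the deletion, so this neither checks nor contradicts the labels. Sex-linked reads made all wild-type and knockout DMSO libraries female, all Cre-negative and knockout imiquimod libraries male, and Cre-negative DMSO replicates 1 and 2 male and replicate 3 female. Sex thus changed together with imiquimod in the knockout groups, and a term for sex rests on the Cre-negative DMSO libraries alone. The ribosomal RNA gene Rn18s-rs5 took 3.84% to 19.1% of counts, with Cre-negative imiquimod replicate 2 (19.1%) and knockout DMSO replicate 1 (17.5%) highest. Keratinocyte markers were detected in all groups, 7 of 7 for basal cells and 8 of 8 measured for suprabasal cells.

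Wild-type DMSO replicate 2 stood apart from replicate 1 in hair follicle genes, and it bears on every contrast with wild-type DMSO skin. Its level of Krt25, an inner root sheath keratin, was 80.5 times that of replicate 1, of Krt71 86.6 times and of Krt27 221 times. In the same library Gjb2 was 14.3 times, Gjb6 6.93 times and Gja1 4.50 times the level in replicate 1, while Gjb5 was at 0.624 times. Other follicle genes moved less: the ratio was 2.80 for Lgr5 and 1.14 for Sox9, and 0.428 for Lgr6. Panx1 (0.853) and the basal keratin Krt15 (0.627) were lower in replicate 2, and the wound keratin Krt6a was at 1.63. Wild-type imiquimod replicate 1 also held more Krt25 than its replicate 2 (199 and 7.87 CPM). Gjb6 was higher there (2150 and 949 CPM), but Gjb2 (550 and 890 CPM), Gja1 (144 and 277 CPM) and Gjb5 (6.07 and 15.3 CPM) were lower. The part of the hair follicle genes in the connexin levels of these libraries was not tested. Fold changes that use wild-type DMSO replicate 2 are given with and without it, while counts over gene lists include it. Leaving out either replicate leaves 1 library in this group. Fewer genes then passed for imiquimod in wild-type skin and for knockout against wild-type DMSO skin, whichever replicate was left out.

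**Figure D1:**
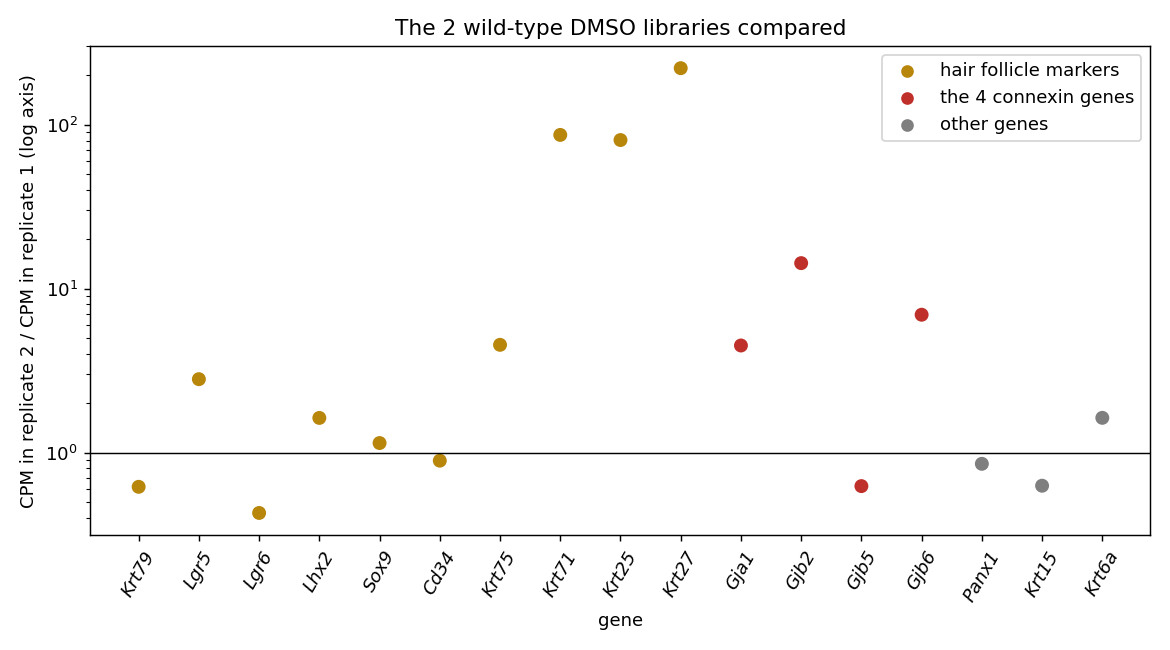
Ratio of CPM in wild-type DMSO replicate 2 to CPM in replicate 1 (log axis) for 10 hair follicle markers, the 4 connexin genes and 3 other genes, 1 point a gene. Krt71, Krt25 and Krt27 lie above 80, Gjb2, Gjb6 and Gja1 lie at 14.3, 6.93 and 4.50, and Gjb5 lies below 1 at 0.624.

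In the annotation of the deposited table, which is on GRCm39, Gjb2 (ENSMUSG00000046352.8) spans chr14:57336057-57342159 and Gjb6 (ENSMUSG00000040055.10) chr14:57360760-57371068, both on the minus strand and 18600 bases apart. Gjb5 (ENSMUSG00000042357.3) spans chr4:127248602-127251974 on the minus strand. Gja1 (ENSMUSG00000050953.11) stands at chr10:56253426-56266511 on the plus strand. No other gene of the table overlaps any of the 4. Because the Gjb2 and Gjb6 neighbours moved alike and Gjb5 moved the other way, the 250 bases before each RefSeq start are shown, read 5′ to 3′ along the gene from RefSeq sequence of GRCm38.p6, a different build from that of the table. Capitals mark matches to the motifs searched on both strands. They were the AP-1 site TGANTCA, the antioxidant response element core TGACNNNGC, the GC box GGGCGG, the AP-2 site GCCNNNGGC and the TATA box TATAAA.
Gja1, chr10:56377050-56377299, plus strand: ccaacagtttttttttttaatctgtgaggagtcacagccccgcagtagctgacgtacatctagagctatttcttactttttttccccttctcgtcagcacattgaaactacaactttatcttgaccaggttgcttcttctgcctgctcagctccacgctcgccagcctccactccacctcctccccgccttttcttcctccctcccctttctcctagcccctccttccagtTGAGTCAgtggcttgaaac
Gjb2, chr14:57104703-57104952, minus strand: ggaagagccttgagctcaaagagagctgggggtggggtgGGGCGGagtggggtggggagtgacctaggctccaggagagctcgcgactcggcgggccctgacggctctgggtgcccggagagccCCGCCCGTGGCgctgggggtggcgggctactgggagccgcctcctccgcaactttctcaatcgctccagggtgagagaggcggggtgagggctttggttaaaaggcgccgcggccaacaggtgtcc
Gjb5, chr4:127358165-127358414, minus strand: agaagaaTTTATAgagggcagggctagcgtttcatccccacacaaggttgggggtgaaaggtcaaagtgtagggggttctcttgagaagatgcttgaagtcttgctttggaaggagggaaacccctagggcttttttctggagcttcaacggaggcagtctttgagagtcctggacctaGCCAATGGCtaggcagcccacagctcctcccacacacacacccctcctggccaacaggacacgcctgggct
Gjb6, chr14:57133612-57133861, minus strand: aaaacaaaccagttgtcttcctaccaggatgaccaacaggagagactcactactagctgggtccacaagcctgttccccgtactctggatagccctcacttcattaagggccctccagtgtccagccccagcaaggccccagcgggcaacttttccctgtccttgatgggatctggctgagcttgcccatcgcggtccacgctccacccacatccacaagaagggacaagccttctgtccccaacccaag

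Counting back from the start, Gja1 carried the AP-1 letters TGAGTCA at -19 to -13. Gjb2 carried GC boxes at -211 to -206 and, on the opposite strand, at -126 to -121, the second overlapping an AP-2 match at -124 to -116. Gjb5 carried an AP-2 match at -71 to -63 and TATA box letters on the opposite strand at -243 to -238. The Gjb6 window held none of the 5 motifs. Among 32851 promoter windows of the same length, 6.75% held the AP-1 letters, 10.2% the antioxidant response element core, 32.7% the GC box, 13.7% the AP-2 letters and 12.4% the TATA box. The neighbours Gjb2 and Gjb6 had no searched motif in common. GC content was 69.2% for Gjb2, 56.8% for Gjb6, 54.4% for Gjb5 and 50% for Gja1, against a median of 52.4% over all windows, and 10.4% of windows were at or above Gjb2. A match describes letters only, and the absence of one says nothing of a factor.

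Across the 6 groups Gjb2 and Gjb6 were low in DMSO skin with intact Nedd8 and high in the other 4 groups, Gjb5 was high where those were low, and Gja1 varied less. The Gjb2 group means spanned a ratio of 81.8 and those of Gjb6 a ratio of 106, against 12.05 for Gjb5 and 7.74 for Gja1. For Gjb2 the order of means was Cre-negative imiquimod, knockout DMSO, knockout imiquimod, wild-type imiquimod, wild-type DMSO and Cre-negative DMSO. For Gjb6 it was wild-type imiquimod, Cre-negative imiquimod, knockout DMSO, knockout imiquimod, wild-type DMSO and Cre-negative DMSO. In both orders the only gap that no library crossed lay between the fourth and the fifth group. For Gjb5 the order ran wild-type DMSO, Cre-negative DMSO, knockout DMSO, Cre-negative imiquimod, wild-type imiquimod and knockout imiquimod. Knockout DMSO overlapped neither neighbour there, and the other neighbours overlapped. For Gja1, Cre-negative imiquimod stood above the next group without overlap, and below it wild-type imiquimod, knockout DMSO, knockout imiquimod, wild-type DMSO and Cre-negative DMSO each overlapped the next.

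**Figure D2:**
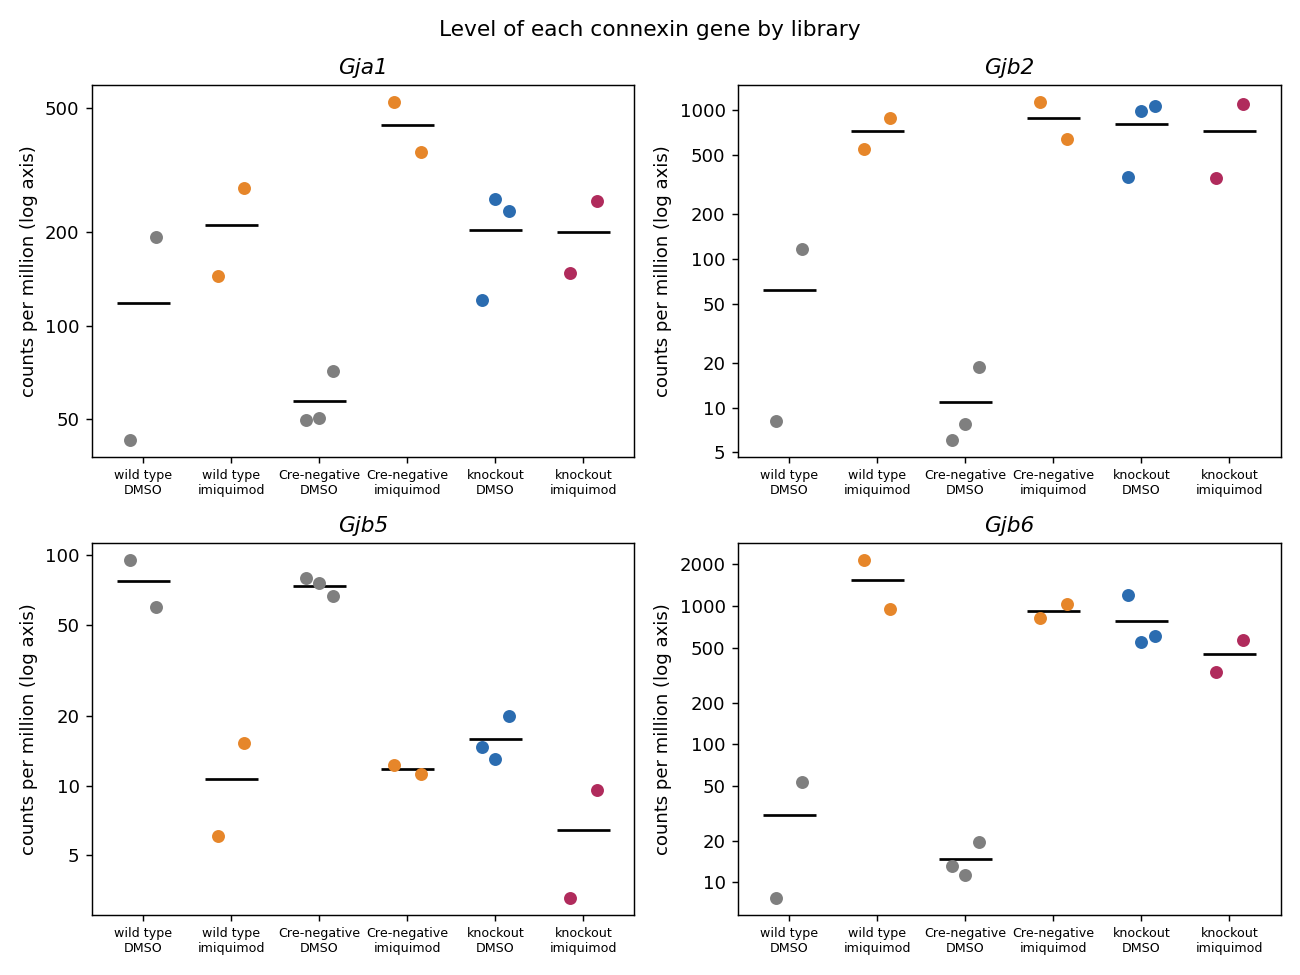
CPM of each connexin gene (log axis) in the 6 groups, 1 point a library, with a black bar at the group mean. Gjb2 and Gjb6 sit below 120 CPM in both DMSO groups with intact Nedd8 and above 330 CPM in the other 4 groups, Gjb5 sits above 59 CPM in those 2 DMSO groups and at or below 20.1 CPM elsewhere, and Gja1 is highest in Cre-negative imiquimod skin.

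The first comparison sets the connexins of knockout DMSO skin against those of Cre-negative DMSO skin. Sex also differed between these groups, and induction is named for the knockout alone, so the part of the deletion cannot be told apart. All 4 genes passed the test: Gjb2, Gjb6 and Gja1 rose and Gjb5 fell. Over all genes tested 29.6% passed, 14% higher and 15.7% lower, or 2243 and 2509 genes, and the median log2 change was -0.06. With library size alone in place of TMM the split was 1183 higher and 3378 lower. The libraries of the groups did not overlap for 21.8% of all genes on the higher and 26.5% on the lower side.

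Gjb2, the gene of connexin 26, stood at 6.09, 7.77 and 18.7 CPM in the 3 Cre-negative DMSO libraries and at 357, 992 and 1071 CPM in the 3 knockout DMSO libraries. The lowest knockout library was far above the highest Cre-negative library, and the spread was wide on both sides. The means were 10.8 ± 6.82 (SD, n = 3) and 807 ± 392 (SD, n = 3) CPM. This was a 74.7-fold rise, or 6.22 ± 0.94 (SE) on the log2 scale, with an adjusted p of 0.000388 by edgeR's quasi-likelihood test. Without Cre-negative DMSO replicate 3, the library with most Gjb2 in its group and its only female one, the log2 change was 6.86, and with a term for sex it was 5.43 (adjusted p = 0.0364).

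Gjb6, the gene of connexin 30, stood at 13.1, 11.3 and 19.5 CPM in Cre-negative DMSO skin and at 1208, 545 and 602 CPM in knockout DMSO skin. Again no library of a group reached the other group. The means of 14.7 ± 4.31 and 785 ± 367 CPM (SD, n = 3 each) gave a log2 change of 5.74 ± 0.69, a 53.5-fold rise with an adjusted p of 7.75e-05 by edgeR's quasi-likelihood test. Within the knockout group the neighbours did not share an order: replicate 1 held the least Gjb2 and the most Gjb6. Its Gjb6 count was 3.38 per Gjb2 count, against 0.550 and 0.562 in replicates 2 and 3, and it is the knockout DMSO library with the high Rn18s-rs5 share. In Cre-negative DMSO skin the ratio was 2.16, 1.46 and 1.05.

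Gja1, the gene of connexin 43, stood at 49.9, 50.6 and 71.3 CPM in Cre-negative DMSO skin and at 121, 255 and 234 CPM in knockout DMSO skin. The groups did not overlap, but they lay nearer to each other than those of Gjb2 and Gjb6. The rise was 3.55-fold (log2 1.83 ± 0.50, adjusted p = 0.0142 by edgeR's quasi-likelihood test), from a mean of 57.3 ± 12.2 to 203 ± 72.2 CPM (SD, n = 3 each). The call was lost without Cre-negative DMSO replicate 1 (1.74, adjusted p = 0.057) or replicate 2 (1.75, adjusted p = 0.0581), with library size alone (1.52, adjusted p = 0.0772) and with a term for sex (1.51, adjusted p = 0.241).

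Gjb5, the gene of connexin 31.1, stood at 79.4, 75.4 and 66.2 CPM in Cre-negative DMSO skin and at 14.8, 13.1 and 20.1 CPM in knockout DMSO skin. Both groups were tight and did not overlap. The fall was 4.58-fold (log2 -2.20 ± 0.41, adjusted p = 0.00172 by edgeR's quasi-likelihood test), from 73.7 ± 6.77 to 16 ± 3.67 CPM (SD, n = 3 each). Markers of keratinocyte states moved with these genes. The summed CPM of 5 wound keratinocyte markers was 492 to 851 in Cre-negative and 23431 to 35762 in knockout DMSO libraries, and that of 8 suprabasal markers was 16393 to 30648 and 1289 to 2069. The 7 basal markers summed to 5252 to 7225 and 15537 to 20287 CPM, and the 10 hair follicle markers to 1327 to 1483 and 410 to 532 CPM. None of these lists had a marker at 0, and their part in the connexin changes was not tested.

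The imiquimod response of skin with intact Nedd8 was measured in Cre-negative and in wild-type libraries. In Cre-negative skin all 4 connexins passed the test in the directions they took in knockout DMSO skin, a contrast with the same Cre-negative DMSO libraries, so that the 2 sets of values are not independent. Of all genes tested 18.2% passed, 8.15% higher and 10.1% lower (1307 and 1614 genes, or 537 and 3141 with library size alone). The libraries did not overlap for 24.8% of genes on the higher and 29.5% on the lower side. Gjb2 reached 1136 and 638 CPM with imiquimod, a log2 change of 6.36 ± 0.97 (adjusted p = 0.00082 by edgeR's quasi-likelihood test) that was 7.00 without Cre-negative DMSO replicate 3. Gjb6 reached 824 and 1031 CPM, a log2 change of 5.98 ± 0.72 (adjusted p = 0.000156). Every imiquimod library was above every DMSO library for both genes, by a wide margin.

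Gja1 reached 524 and 362 CPM in Cre-negative imiquimod skin, the 2 highest values of this gene in the series. The rise was 7.73-fold (log2 2.95 ± 0.54, adjusted p = 0.00261 by edgeR's quasi-likelihood test), and the call held when any 1 library was left out. Gjb5 fell to 12.3 and 11.3 CPM, below every DMSO library of the same genotype (log2 -2.64 ± 0.49, adjusted p = 0.00284). The wound marker sum was 26796 to 29782 CPM and the suprabasal marker sum 5593 to 11138 CPM in these 2 libraries, and the follicle marker sum was 605 to 811 CPM.

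In wild-type skin the test passed for Gjb2, Gjb6 and Gjb5 and missed for Gja1, where 21.4% of all genes passed, 9.59% higher and 11.8% lower (1537 and 1896, or 551 and 3608 with library size alone), and 29.5% and 34.3% did not overlap on those sides. Gjb6 stood at 7.72 and 53.5 CPM with DMSO and at 2150 and 949 CPM with imiquimod, where both libraries were high and did not overlap the DMSO pair. The log2 change was 5.65 ± 0.84 (adjusted p = 0.000827 by edgeR's quasi-likelihood test). It was 7.65 without DMSO replicate 2, 4.96 without DMSO replicate 1, 4.95 without imiquimod replicate 1 and 6.24 without imiquimod replicate 2, past the threshold each time. Gjb5 went from 95.2 and 59.4 to 6.07 and 15.3 CPM, without overlap, a log2 change of -2.86 ± 0.52 (adjusted p = 0.00259) that was -3.58 without imiquimod replicate 2 and -3.16 without DMSO replicate 2.

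Gjb2 in wild-type skin stood at 8.13 and 116 CPM with DMSO and at 550 and 890 CPM with imiquimod. The groups did not overlap, but the DMSO libraries were far apart. The log2 change was 3.53 ± 1.01 (adjusted p = 0.0256 by edgeR's quasi-likelihood test). It was 6.47 (adjusted p = 0.00681) without DMSO replicate 2, and the call was lost without DMSO replicate 1 (2.71, adjusted p = 0.0875), imiquimod replicate 1 (3.84, adjusted p = 0.0607) or imiquimod replicate 2 (3.26, adjusted p = 0.0547). Gja1 stood at 43.04 and 194 CPM with DMSO and at 144 and 277 CPM with imiquimod, so that the high DMSO library lay between the imiquimod libraries. Its log2 change of 0.83 ± 0.59 (adjusted p = 0.328) was 2.29 (adjusted p = 0.0415) without DMSO replicate 2. The wound marker sum was 470 to 497 CPM with DMSO and 25825 to 30513 CPM with imiquimod, the suprabasal sum 12924 to 18693 and 3864 to 6860 CPM, and the follicle sum 1342 to 3928 and 1379 to 2289 CPM.

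The third question is how imiquimod acted on knockout skin, in which Gjb2 and Gjb6 were already high with DMSO. None of the 4 connexins passed the test between knockout imiquimod and knockout DMSO skin by edgeR's quasi-likelihood test, against 11.1% of all genes, 8.56% higher and 2.52% lower (1372 and 404 genes, or 1429 and 186 with library size alone). The libraries did not overlap for 22.5% of genes on the higher and 18.9% on the lower side. Gjb2 was at 348 and 1102 CPM with imiquimod, just below and just above the DMSO libraries at 357 to 1071 CPM (log2 -0.16 ± 0.84, adjusted p = 0.93). Gja1 was at 147 and 252 CPM, inside the range of the DMSO libraries at 121 to 255 CPM (log2 -0.03 ± 0.54, adjusted p = 0.984). For both genes the imiquimod libraries overlapped those with DMSO. The standard errors leave room for a change of either sign. The wound marker sum was 9175 to 15830 CPM with imiquimod and 23431 to 35762 CPM with DMSO, the suprabasal sum 314 to 643 and 1289 to 2069 CPM, and the basal sum 5998 to 9912 and 15537 to 20287 CPM, and their part was not tested.

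Gjb6 was at 333 and 564 CPM in knockout imiquimod skin, where replicate 2 overlapped the DMSO libraries and replicate 1 lay below them (log2 -0.81 ± 0.64, adjusted p = 0.455). Gjb5 was at 3.27 and 9.56 CPM, below each of the 3 knockout DMSO libraries, with a log2 change of -1.33 ± 0.47 that missed the threshold (adjusted p = 0.0893 by edgeR's quasi-likelihood test). It was -0.75 without knockout imiquimod replicate 1 and -2.30 without replicate 2, so the miss depended on the library left out. DESeq2 and limma voom called the change, at -1.31 and -1.55.

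With imiquimod in both genotypes, knockout and Cre-negative skin did not differ past the threshold in any of the 4 connexins by edgeR's quasi-likelihood test, against 17.9% of all genes, 11.6% higher and 6.33% lower (1852 and 1014, or 2443 and 496 with library size alone). The log2 differences were -1.15 ± 0.59 for Gja1, -0.29 ± 0.91 for Gjb2, -0.88 ± 0.50 for Gjb5 and -1.05 ± 0.70 for Gjb6, with an adjusted p of 0.207, 0.865, 0.253 and 0.332. Gja1, Gjb5 and Gjb6 were lower in both knockout libraries than in both Cre-negative libraries, and Gjb2 overlapped. Of all genes 25.3% were lower and 30.7% higher without overlap. The Gjb5 difference was -0.30 without knockout imiquimod replicate 1 and -1.89 without replicate 2, so its miss depended on the library left out. With standard errors this wide, a miss does not show equal levels.

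**Figure D3:**
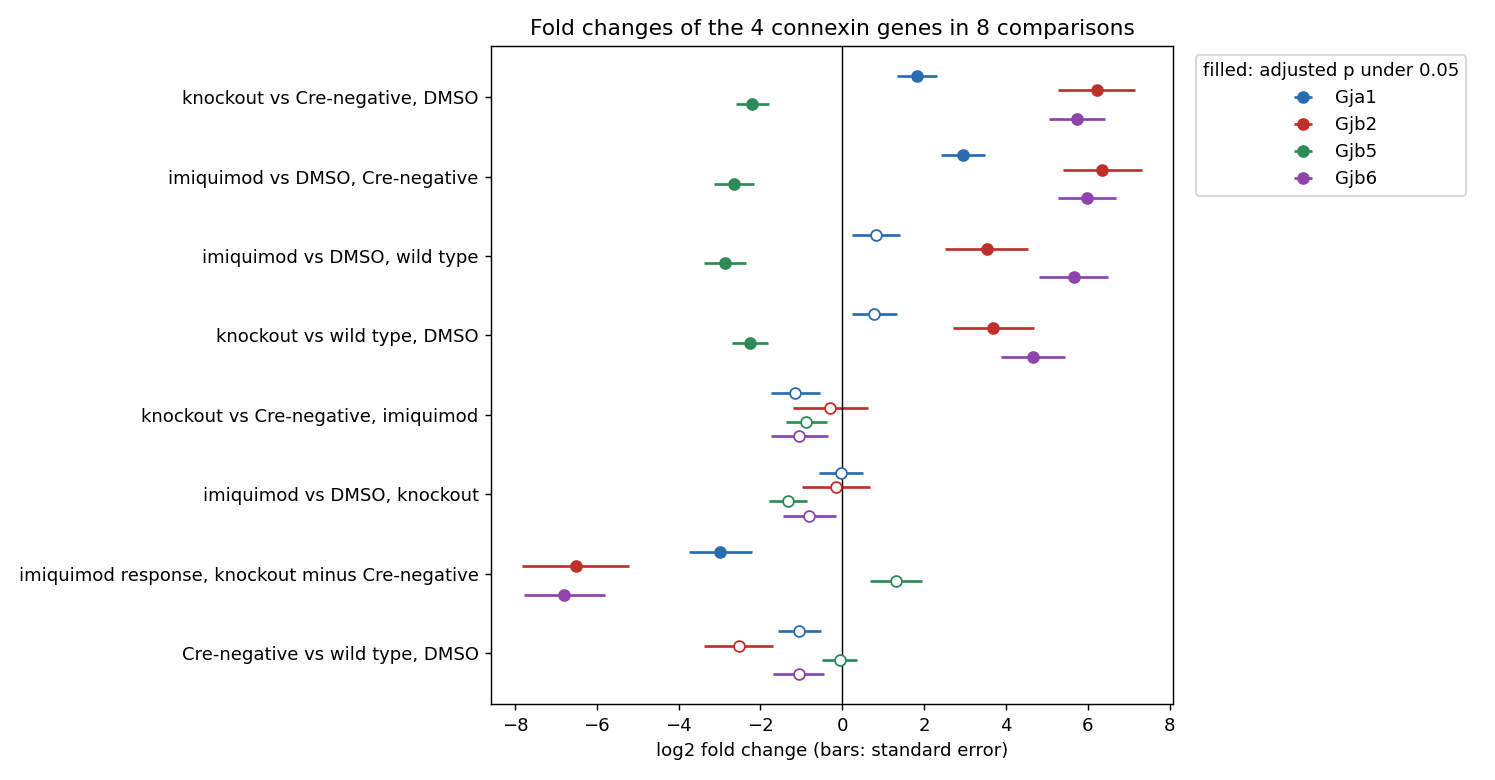
Log2 fold change of the 4 connexin genes (x axis, bars are standard errors) in 8 comparisons, filled where the adjusted p is under 0.05. Gjb2 and Gjb6 lie between 3.53 and 6.36 in the 4 comparisons at the top, Gjb5 lies between -2.86 and -2.20 there, no point is filled for imiquimod in knockout skin or for knockout against Cre-negative skin with imiquimod, and the response difference is filled for Gja1, Gjb2 and Gjb6.

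Whether imiquimod changed the connexins unequally in the knockout and the Cre-negative genotype was tested directly as an interaction. It passed for 3 of the 4 connexins, all lower, against 23.6% of all genes, 9.63% lower and 14% higher (1543 and 2242, or 511 and 3650 with library size alone). It was -6.51 ± 1.31 on the log2 scale for Gjb2 (adjusted p = 0.00485 by edgeR's quasi-likelihood test), -6.79 ± 0.99 for Gjb6 (adjusted p = 0.00103) and -2.98 ± 0.78 for Gja1 (adjusted p = 0.0159). The interaction uses the libraries of the contrasts above and is not independent of them. It equals the genotype difference with imiquimod minus that with DMSO. These were -0.29 and 6.22 for Gjb2 and -1.05 and 5.74 for Gjb6. It equally is the knockout response minus the Cre-negative response, -0.16 and 6.36 for Gjb2 and -0.81 and 5.98 for Gjb6. The large values of both forms start from the same low Cre-negative DMSO libraries, so the interaction cannot be assigned to 1 group. The Gjb2 interaction was -7.15 without Cre-negative DMSO replicate 3, -5.91 without knockout imiquimod replicate 1 and -7.58 without knockout imiquimod replicate 2. That of Gja1 lost its call without knockout imiquimod replicate 1 (-2.65, adjusted p = 0.103), with library size alone (-2.28, adjusted p = 0.094) and with a term for sex (-2.66, adjusted p = 0.103). Gjb5 fell in Cre-negative skin and its difference of 1.31 ± 0.64 missed the threshold (adjusted p = 0.149). It was 1.89 without knockout imiquimod replicate 1 and 0.31 without replicate 2.

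Knockout DMSO skin was also set against wild-type DMSO skin, which shares its knockout libraries with the contrast against Cre-negative skin. Gjb2, Gjb6 and Gjb5 passed and Gja1 missed, where 25.6% of all genes passed, 11.3% higher and 14.4% lower (1805 and 2302, or 842 and 3365 with library size alone), and 24.2% and 29.6% did not overlap on those sides. Gjb6 rose by 4.67 ± 0.78 on the log2 scale (adjusted p = 0.00102 by edgeR's quasi-likelihood test), 6.66 without wild-type DMSO replicate 2 and 3.91 without replicate 1. Gjb5 changed by -2.26 ± 0.44 (adjusted p = 0.00266), close to its change against Cre-negative skin, and by -2.57 without wild-type DMSO replicate 2. Gjb2 rose by 3.69 ± 0.99 (adjusted p = 0.0153), which was 6.64 without wild-type DMSO replicate 2 and 2.84 without replicate 1 (adjusted p = 0.0668). Gja1 changed by 0.78 ± 0.55 (adjusted p = 0.32), and by 2.24 without wild-type DMSO replicate 2 (adjusted p = 0.0308).

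Between Cre-negative and wild-type DMSO skin, the contrast of the control genotypes, 0 of the 4 connexins and 0 of all genes passed by edgeR's quasi-likelihood test, a share of 0%, while 1120 genes had an unadjusted p under 0.05, DESeq2 called 144 genes and limma voom 195. The log2 differences were -2.53 ± 0.84 for Gjb2, -1.07 ± 0.63 for Gjb6, -1.05 ± 0.53 for Gja1 and -0.07 ± 0.44 for Gjb5, with an adjusted p of 0.37, 0.903, 0.797 and 1, and all 4 genes overlapped, while 16.1% of all genes were higher and 14.5% lower without overlap. Without wild-type DMSO replicate 1 the Gjb2 difference was -3.37 and passed (adjusted p = 0.0362), and without replicate 2 it was 0.41. Without replicate 2 the difference was 0.92 for Gjb6, 0.41 for Gja1 and -0.37 for Gjb5, none past the threshold.

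Of 16 other connexin genes all were in the table and 6 had enough counts to be tested. Their median log2 change in knockout against Cre-negative DMSO skin was 0.40, with 1 risen and 0 fallen. That gene was Gjb1, which encodes connexin 32, best known from liver and from myelinating Schwann cells. It stood at 0.503, 0.547 and 1.38 CPM in Cre-negative and at 34.6, 7.96 and 17.95 CPM in knockout DMSO libraries, low in the former and well above them in the latter. The log2 change was 4.64 ± 0.67 (adjusted p = 0.000281 by edgeR's quasi-likelihood test), 4.05 without knockout DMSO replicate 1. Schwann cell markers, 5 of 5 detected, summed to 40.6 to 48.2 and 42.3 to 48.2 CPM in these groups.

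With imiquimod Gjb1 reached 17.4 and 27.7 CPM in Cre-negative skin (log2 4.82 ± 0.69, adjusted p = 0.000567 by edgeR's quasi-likelihood test), and 117 and 42.9 CPM in wild-type skin from 0.702 and 1.09 CPM with DMSO. The wild-type change was 6.43 ± 0.87 (adjusted p = 0.000438), 5.52 without imiquimod replicate 1, 7.08 without imiquimod replicate 2 and 6.82 without DMSO replicate 2. In knockout imiquimod skin Gjb1 was at 2.51 and 6.73 CPM, below both Cre-negative imiquimod libraries, and its response differed from that of Cre-negative skin by -6.93 ± 0.99 (adjusted p = 0.000977; -6.34 without knockout DMSO replicate 1 and -7.85 without knockout imiquimod replicate 2). The log2 difference between the genotypes under imiquimod, -2.30 ± 0.71 (adjusted p = 0.0398), lost its call without Cre-negative imiquimod replicate 1 (-2.65, adjusted p = 0.0662), without replicate 2 (-1.88, adjusted p = 0.191) and without knockout imiquimod replicate 1 (-1.75, adjusted p = 0.294), and was -3.22 (adjusted p = 0.0446) without replicate 2 of the latter. The call was also lost with the replicate number as a block (-2.28, adjusted p = 0.0532), with library size alone (-1.82, adjusted p = 0.0725) and without the 2 libraries highest in Rn18s-rs5 (-1.93, adjusted p = 0.115).

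Gja4, the gene of endothelial connexin 37, was at 4.72 and 2.13 CPM in knockout imiquimod libraries and at 0.430 and 0.0673 CPM, 3 counts and 1 count, in Cre-negative imiquimod libraries (log2 4.04 ± 0.79, adjusted p = 0.00452 by edgeR's quasi-likelihood test). The call was lost without Cre-negative imiquimod replicate 2 (3.00, adjusted p = 0.054) and without knockout imiquimod replicate 1 (3.34, adjusted p = 0.0515), and the difference was 5.44 without Cre-negative imiquimod replicate 1. Without the 2 libraries highest in Rn18s-rs5 it was 2.95 (adjusted p = 0.053). The 8 endothelial markers, none at 0, summed to 146 to 324 CPM in the former and 32.1 to 39.4 CPM in the latter libraries, and their part in the difference was not tested. Gja3, the gene of lens connexin 46, was not tested. It had 76 counts in wild-type DMSO replicate 2, the library highest in Krt25, and at most 2 counts in any other library. Wild-type imiquimod replicate 1, with Krt25 at 199 CPM, had 1 Gja3 count. Gja3 was chosen after its values were seen.

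Pannexins form channels that release ATP and do not dock into gap junctions. Panx1 stood at 28.1, 25.7 and 28.9 CPM in Cre-negative and at 57.6, 43.8 and 63.0 CPM in knockout DMSO libraries, higher in each. The rise was 1.99-fold (log2 0.99 ± 0.25, adjusted p = 0.0105 by edgeR's quasi-likelihood test), and the call was lost with library size alone (0.61, adjusted p = 0.118) and with a term for sex (0.93, adjusted p = 0.172). Panx3, a pannexin of differentiating keratinocytes, bone and cartilage, had 13.3, 12.3 and 5.83 CPM in Cre-negative DMSO libraries and 0 counts in all 5 knockout libraries. Against a floor of 3 counts over the group it was at least 173-fold lower in knockout than in Cre-negative DMSO skin (adjusted p = 0.000277). With imiquimod it was at least 24.7-fold lower than in Cre-negative skin (adjusted p = 0.00744), a call lost without knockout imiquimod replicate 1 (adjusted p = 0.0662). These bounds cover counting error only. In knockout skin Panx3 fell with the suprabasal marker sum, as Gjb5 did, but Gjb5 kept 3.27 to 20.1 CPM in the same 5 libraries. With imiquimod that sum was also lower in Cre-negative and wild-type skin. Panx3 missed the threshold in Cre-negative skin (log2 -1.83 ± 0.74, adjusted p = 0.111 by edgeR's quasi-likelihood test). Its wild-type libraries overlapped, at 13.5 and 4.75 CPM with DMSO and 1.51 and 6.08 CPM with imiquimod. The part of suprabasal cells was not tested.

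**Figure D4:**
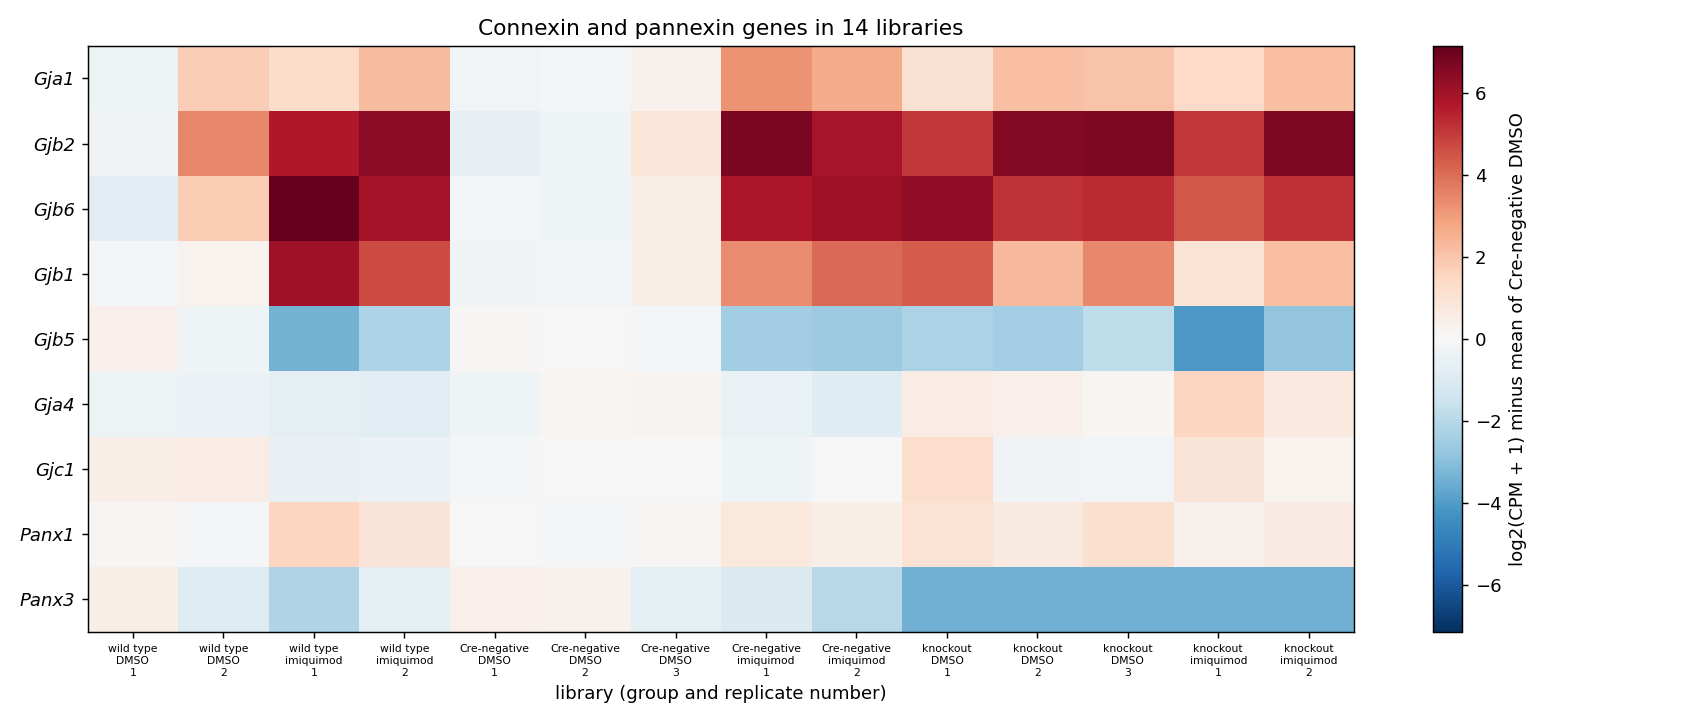
Difference of log2(CPM + 1) from the mean of the 3 Cre-negative DMSO libraries for 9 connexin and pannexin genes (rows) in 14 libraries (columns), red for higher and blue for lower. Gjb2, Gjb6 and Gjb1 are red in knockout and imiquimod libraries, palest for Gjb1 in knockout imiquimod, Gjb5 is blue in them, and Panx3 is at its lowest value in all 5 knockout libraries.

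Connexin 43 is held at the membrane by ZO-1 and removed by phosphorylation and ubiquitin ligases. Of 34 genes for its partners and turnover, 33 were tested, and 4 rose and 3 fell in knockout against Cre-negative DMSO skin, where 29.6% of all genes passed, with a median log2 change of 0.18 against -0.06 for all genes. Src, a kinase that closes connexin 43 channels, rose by 1.39 ± 0.29 (adjusted p = 0.00335 by edgeR's quasi-likelihood test), and Smurf1, a ligase of the NEDD4 family, rose by 1.32 ± 0.27 (adjusted p = 0.00316). The Smurf1 call was lost with library size alone (0.99, adjusted p = 0.0698) and with a term for sex (1.32, adjusted p = 0.0824). Another ubiquitin ligase of the list, Trim21, fell by 1.80 ± 0.44 (adjusted p = 0.00819), a call lost with a term for sex (-1.98, adjusted p = 0.0529). With imiquimod 2 rose and 3 fell in Cre-negative skin and 2 rose and 2 fell in wild-type skin, at medians of 0.07 and -0.05, where 18.2% and 21.4% of all genes passed. In knockout imiquimod against knockout DMSO skin 0 passed (median -0.16), against 11.1% of all genes.

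Hemichannels and pannexins release ATP, which acts on P2 receptors and is cleared by ectonucleotidases. Of 22 such genes 18 were tested, and 3 rose and 4 fell in knockout against Cre-negative DMSO skin (median -0.94), where 29.6% of all genes passed. P2ry2, an ATP and UTP receptor of keratinocytes, rose by 2.10 ± 0.34 (adjusted p = 0.000582 by edgeR's quasi-likelihood test), and Nt5e, which makes adenosine from AMP, rose by 2.08 ± 0.36 (adjusted p = 0.000993). P2ry2 also rose with imiquimod in wild-type skin, by 2.44 ± 0.41 (adjusted p = 0.00177), and by 2.55 without wild-type DMSO replicate 2. The numbers risen and fallen with imiquimod were 3 and 1 in wild-type, 1 and 2 in Cre-negative and 7 and 1 in knockout skin, with medians of -0.09, -0.60 and 1.55. Of all genes 21.4%, 18.2% and 11.1% passed in these contrasts. Several of these genes, such as Entpd1, are also expressed by leukocytes. Entpd1 rose with imiquimod in knockout skin by 3.52 ± 0.42 (adjusted p = 0.000224), and by 2.77 without knockout imiquimod replicate 1 and 4.01 without replicate 2. The 7 neutrophil markers, all detected there, summed to 122 to 224 CPM in knockout DMSO and 1459 to 3284 CPM in knockout imiquimod libraries, and their part was not tested.

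Tight and adherens junctions lie beside gap junctions in the same cell borders, and all 26 listed genes were tested. In knockout against Cre-negative DMSO skin 5 rose and 8 fell, with a median of -0.02, where 29.6% of all genes passed. Tjp3, which encodes the tight junction scaffold ZO-3, fell by 3.76 ± 0.47 on the log2 scale (adjusted p = 9.38e-05 by edgeR's quasi-likelihood test), and by 4.82 without knockout DMSO replicate 3. Nectin3, an adhesion molecule of adherens junctions, fell by 2.51 ± 0.34 (adjusted p = 0.000191), and F11r, the junctional adhesion molecule A, rose by 1.39 ± 0.26 (adjusted p = 0.00155). Nectin3 also fell with imiquimod in Cre-negative and wild-type skin (-4.07 ± 0.44 and -4.22 ± 0.45, adjusted p = 7.58e-05 and 9.8e-05), the latter -4.17 without wild-type DMSO replicate 2. With imiquimod 3 rose and 4 fell in Cre-negative, 4 and 6 in wild-type and 1 and 4 in knockout skin, with medians of -0.11, -0.26 and -0.67. Of all genes 18.2%, 21.4% and 11.1% passed there, and like the list they moved in both directions.

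Genes with the most similar pattern were ranked by the Pearson correlation of log2 CPM over the 14 libraries, among 9438 tested genes with a mean of at least 5 CPM. The libraries share their groups, so the coefficients mostly reflect group differences and are given as a description. For Gjb2 the leading gene was Pi15 (0.990), a secreted peptidase inhibitor, followed by Fhl2 (0.968), Steap1 (0.962), Sorcs2 (0.957) and Ccne1 (0.953). For Gjb6 they were Serpina9 (0.973), Sprr2f (0.967), Il19 (0.967), Ddost (0.966) and Cers3 (0.966). Gjb6 was thus not among the 5 nearest genes of its neighbour Gjb2. For Gja1 they were Snrnp40 (0.921), Gjb2 (0.918), Pi15 (0.917), Hat1 (0.911) and Srsf2 (0.909). For Gjb5 they were Marveld2 (0.956), which encodes the tight junction protein tricellulin, Lce1m (0.952), Cachd1 (0.943), Lgr6 (0.942) and Camkk1 (0.938). By Spearman's coefficient 0 of the 5 leading genes stayed the same for each of the 4 genes, so the names depend on the measure.

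Pi15, Serpina9 and Marveld2 were picked for their likeness to Gjb2, Gjb6 and Gjb5, so similar patterns are built in. The group means of Pi15 were 2.50 CPM in Cre-negative DMSO and 11.7 CPM in wild-type DMSO skin. They were 73.6 CPM in wild-type imiquimod, 76.8 CPM in Cre-negative imiquimod, 76.8 CPM in knockout DMSO and 86.8 CPM in knockout imiquimod skin. Among these 4 groups the order was not that of Gjb2, which was highest in Cre-negative imiquimod skin. In group means Serpina9, like Gjb6, was higher in imiquimod skin with intact Nedd8 than in knockout skin. Serpina9 was at 37.7 and 36.3 CPM in wild-type and Cre-negative imiquimod skin, and at 19.2 and 8.90 CPM in knockout DMSO and imiquimod skin. The Gjb6 libraries overlapped: knockout DMSO replicate 1 (1208 CPM) lay above both Cre-negative imiquimod libraries (824 and 1031 CPM) and wild-type imiquimod replicate 2 (949 CPM). Marveld2, like Gjb5, was highest in Cre-negative and wild-type DMSO skin (19.5 and 14.9 CPM) and at 4.37 to 6.98 CPM in the other 4 groups. The Gjb6 count per Gjb2 count was 3.91 and 1.07 in wild-type imiquimod, 0.725 and 1.62 in Cre-negative imiquimod and 0.956 and 0.512 in knockout imiquimod libraries. Both wild-type libraries were above both knockout libraries, and the Cre-negative pair overlapped each of the other groups.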

How the data were processed

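The authors deposited raw read counts per gene from QuantSeq FWD 3′-tag libraries, whole numbers for 56953 genes in 14 libraries. Per the file headers another unit, gene length in bases, stands beside the counts and was used only to describe the genes. Per the submitters' processing notes, which give no roles, the tools were STAR, featureCounts and DESeq2, and GRCm38 and GRCm39 are listed as builds. Of 52029 genes found in both annotations 2.7% had their GRCm38 start, so positions are those of GRCm39. How strand and multi-mapping were handled is not given in the sources used here.

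Groups came from genotype and treatment labels. The counts of 16027 genes kept by filterByExpr were scaled by TMM and fitted in 1 quasi-likelihood model with edgeR 4.0.16 (R 4.3.3). P-values were adjusted by Benjamini-Hochberg over all genes tested, with a threshold of 0.05, and the value after ± in a log2 fold change is its standard error. All 8 comparisons were contrasts of this fit. The procedure was also run on simulated counts, drawn with the spread it had estimated and with known changes added. Such counts hold no differences of sex, Rn18s-rs5 share or single libraries, so that run says nothing of these in the data. Log2 CPM used a prior count of 2. Named genes were the 4 connexins, Panx1, up to 4 genes per list with the smallest p, and the 5 nearest by correlation. Deviations from the group means were correlated between Cre-negative and knockout DMSO libraries. The coefficients were 0.260, 0.102 and 0.166 for the 3 pairs with the same replicate number. For the other pairs they ran from -0.268 to 0.104. These ranges overlap, and the labels do not say what a number marks, so whether the numbers pair the samples is not known. The fit has no replicate block, and a block was run as an alternative. No other comparison had 3 pairs with the same number. Some genes of the connexin list are counted but not reported here. The members and lists were chosen with earlier results of these data known. Alternatives were DESeq2 1.42.0, limma 3.58.1 voom, other scalings and filters, fewer groups, a replicate block, a sex term and left-out libraries. RefSeq promoters matched 4 of 4 genes.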

Additional observations from a re-analysis of the deposited data

Results flagged for a closer look

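The imiquimod response differed between knockout and Cre-negative skin, by the interaction test of edgeR, for 3 of the 4 connexins and for the genes named below. Of the lists, 5 of 33 connexin 43 partners, 5 of 18 genes around ATP and 8 of 26 junction genes passed, against 23.6% of all genes. A negative log2 value means a smaller rise or a larger fall in knockout skin. Gjb2 and Gjb6 were already high in knockout DMSO skin, and the test uses the same libraries as the contrasts above. Among the connexins it was -2.98 for Gja1, -6.51 for Gjb2, -6.79 for Gjb6, -6.93 for Gjb1 and 3.47 for Gja4. For Gjb2 the responses themselves were 6.36 in Cre-negative and -0.16 in knockout skin, for Gjb6 5.98 and -0.81, and for Gja1 2.95 and -0.03. Of the junction genes Nectin3 differed by 4.36, Cldn7 by 4.13, F11r by -2.24 and Pard6b by -2.94. Of the genes around ATP and adenosine Entpd1 differed by 3.27, Adora3 by 6.08, P2ry13 by 4.05 and P2ry2 by -1.87. Over the Cre-negative imiquimod group Cldn7 had 2 counts, P2ry13 8 and Adora3 25. Of the connexin 43 partners Prkcd differed by 1.82, Nedd4l by 1.72, Smurf1 by -1.47 and Tjp1 by -1.72. Leaving out 1 library moved Entpd1 between 2.53 (without knockout imiquimod replicate 1) and 3.85 (without Cre-negative imiquimod replicate 2) and Adora3 between 4.58 and 8.80, at the same libraries. Without knockout imiquimod replicate 2 Pard6b was at -3.70 and Tjp1 at -2.51. The calls of Gja1, Gja4, Prkcd and Nedd4l were each lost without knockout imiquimod replicate 1 (-2.65, 2.77, 1.90 and 1.498). Those of Gja4 and Prkcd were also lost without Cre-negative imiquimod replicate 2 (2.42 and 1.49). That of Nedd4l was lost as well without Cre-negative DMSO replicate 1 (1.55), Cre-negative imiquimod replicate 1 (1.53) or 2 (1.87), or knockout DMSO replicate 3 (1.60). That of Cldn7 was lost without Cre-negative imiquimod replicate 2 (3.57). That of P2ry2 was lost without Cre-negative imiquimod replicate 1 (-1.58), knockout DMSO replicate 3 (-1.61) or knockout imiquimod replicate 1 (-1.88). The calls of Smurf1 and Tjp1 were lost without any 1 of the 3 Cre-negative DMSO libraries, Cre-negative imiquimod replicate 1 or knockout imiquimod replicate 1, and that of Smurf1 also without knockout DMSO replicate 2 or 3, with values from -1.49 to -1.16 for Smurf1 and from -1.81 to -1.21 for Tjp1. Library size alone ended the calls of Gja1 (-2.28), P2ry2 (-1.19), Smurf1 (-0.75) and Tjp1 (-0.95). A term for sex ended those of Gja1, Prkcd, Nedd4l, Smurf1, Tjp1 and Cldn7, and leaving out the 2 libraries highest in Rn18s-rs5 those of Gja4, Prkcd, Nedd4l and Cldn7. With no filter on low counts that of Smurf1 was lost. Gja4 was at 4.88 without Cre-negative imiquimod replicate 1. Both imiquimod groups of these genotypes were male, the knockout DMSO group was female and the Cre-negative DMSO group was mixed.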

How the results depend on the processing

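For the 4 connexins 32 results gave 548 values under other settings: 503 kept direction and side of the threshold, 13 lost a call, 9 gained one and 23 changed sign, each sign change in a result that had not passed. Of 1294 values for other genes of the lists, 1137 kept both, 143 lost a call, 5 gained one and 9 changed sign. The calls of Gjb6 and Gjb5 for knockout against either control with DMSO and for imiquimod in Cre-negative and wild-type skin, those of Gjb2 for knockout against Cre-negative DMSO skin and imiquimod in Cre-negative skin, and the response differences of Gjb2 and Gjb6 held under every setting run. The cause of a change was not tested.

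Library size alone moved the median log2 change of all genes, in the order knockout against Cre-negative with DMSO and with imiquimod, imiquimod in wild-type, Cre-negative and knockout skin, the response difference and knockout against wild type, by -0.35, 0.39, -0.67, -0.57, 0.16, 0.74 and -0.45, and upper-quartile scaling moved it by -0.12 for imiquimod in wild-type skin. With library size alone the log2 changes of Gja1 for knockout against Cre-negative DMSO skin (1.52), Gjb2 for imiquimod in wild-type skin (2.83) and the Gja1 response difference (-2.28) lost their calls. Signs changed for Gjb2 in knockout against Cre-negative skin with imiquimod (0.10), Gja1 for imiquimod in knockout skin (0.12), Panx1 for knockout against Cre-negative skin with imiquimod (0.24) and Panx1 in Cre-negative against wild-type DMSO skin (-0.070).

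Gja1 for imiquimod in knockout skin was 0.01 with DESeq2 (0.0067), median-of-ratios scaling (0.0063) and a stricter filter (0.0085), 0.046 with only the groups compared, 0.13 with the replicate block and 0.48 with a sex term. Gjb2 there was 0.16 with the block and 1.27 with the sex term. Gjb5 there passed with DESeq2 (-1.31), limma voom (-1.55) and no filter (-1.32). The sex term ended the calls of Gja1 for knockout against Cre-negative DMSO skin (1.51) and the response difference (-2.66), and gave 0.58 for Gjb1 in Cre-negative against wild-type DMSO skin. With no filter Gjb2 passed in that contrast (-2.54, adjusted p = 1.14e-07). With only the groups compared Gjb2 for imiquimod in wild-type skin did not pass (3.52, adjusted p = 0.0788).

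Counts of genes past the threshold were 4752 and 2866 for knockout against Cre-negative libraries with DMSO and with imiquimod, 3433, 2921 and 1776 for imiquimod in wild-type, Cre-negative and knockout skin, 3785 for the response difference, 4107 for knockout against wild type and 0 for Cre-negative against wild type. Voom gave 7297 and 1790 for the first 2 and 195 for the last, and DESeq2 144 for the last. No filter gave 446 and only the groups compared 18 for the last, and the latter setting 1863 for imiquimod in wild-type and 1028 in knockout skin. A sex term gave 1448 for knockout against Cre-negative DMSO skin, 210 for imiquimod in knockout skin and 1469 for the response difference. Without the 2 libraries highest in Rn18s-rs5, 1762 genes passed for imiquimod in Cre-negative skin and 1 for Cre-negative against wild type.

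Leaving out 1 library at a time gave, in the order just used, 3123 to 4497, 796 to 2615, 1092 to 3531, 1272 to 2652, 339 to 1729, 1174 to 3733, 2054 to 3687 and 0 to 188 genes. Where a library is left out of a pair, the lone one is assumed to vary like the other groups. For Gja1 the range was 1.63 to 2.10 for knockout against Cre-negative DMSO skin, 0.20 to 2.29 and -0.47 to 0.30 for imiquimod in wild-type and knockout skin, -3.43 to -2.65 for the response difference, 0.11 to 2.24 for knockout against wild type and -1.71 to 0.41 for Cre-negative against wild type. For Gjb2 it was -1.37 to 0.31 for knockout against Cre-negative skin with imiquimod, 2.71 to 6.47 and -1.22 to 0.44 for imiquimod in wild-type and knockout skin, 2.84 to 6.64 and -3.37 to 0.41 for knockout and Cre-negative against wild type. For Gjb5 it was -1.89 to -0.30, -2.30 to -0.75 and -0.37 to 0.36 for knockout against Cre-negative skin with imiquimod, imiquimod in knockout skin and Cre-negative against wild type, and 0.31 to 1.89 for the response difference. In the contrast of Cre-negative with wild type Gjb6 ran from -1.82 to 0.92. Signs also changed there for Gjb1 (-0.80 to 0.17) and Panx1 (-0.088 to 0.18).

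With the replicate number as a block, the count of genes for knockout against Cre-negative DMSO skin stayed within 1.5 times. None of the calls followed there was lost. Of the other calls followed, the block ended those of Gjb1 for knockout against Cre-negative skin with imiquimod (-2.28, adjusted p = 0.0532) and F11r for imiquimod in knockout skin (-1.11, adjusted p = 0.0577). It gave 3 genes for Cre-negative against wild type, where Panx1 was -0.048, and changed no other call. Over all comparisons the correlation of deviations ran from -0.320 to 0.493 (median 0.062) for 31 pairs of libraries with the same number and from -0.493 to 0.369 (median -0.015) for 50 with different numbers. Groups of 2 or 3 libraries limit all of these results. Fold changes of several named genes, among them Gja4, Cldn7 and P2ry13, rest on under 100 counts a library.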
